A study of Homo sapiens with 16 samples.

Results

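NEDD9 is a scaffold protein of the CAS family, and the 10 genes described here are NEDD9, its relatives BCAR1 and EFS, and the kinases, adaptors and structural proteins they meet at the focal adhesion, namely PTK2, PTK2B, SRC, CRK, CRKL, PXN and VCL. The partners were listed by function, though with earlier results of these data known, whereas NEDD9 was chosen by its measured difference between knockdown and control arrays in these same data. Of the 10 genes, 9 had a transcript cluster (the probes of an array that are summarized to 1 gene-level value) annotated to them alone, among 22011 clusters in all. PXN had 2 such clusters, so that 10 clusters were measured, and no cluster names CRK. Expression was measured in GIST-T1, a cell line from a human gastrointestinal stromal tumor, on 16 Affymetrix Human Exon 1.0 ST arrays. Each of 14 arrays held RNA of cells transfected with siRNA against 1 gene, and the other 2 held RNA of cells transfected with siCON, a nonsilencing siRNA, all at 50 nM by the submitters' protocol. Among the silenced genes 10 encode zinc finger proteins (ZNF708, ZNF665, ZNF528, ZNF431, ZNF429, ZNF254, ZNF100, ZNF91, ZNF85 and ZNF43) and 4 do not, GTF2I (GTF21 in the labels), RASSF8, IGFBP2 and IGF2R. The labels put the siCON arrays at 24 h and 72 h of transfection. Another source dates the first of them differently, and no harvest time is stated for the knockdowns. Separate cultures are not stated for any of the arrays of this single line, so every p-value reflects array-to-array spread, which may be technical. Each knockdown array silences another gene, so the spread among them also holds any differences between the silenced genes. In bulk RNA a lower level in all cells and a loss in some cells cannot be told apart.

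Values are log2 expression estimates, on which a difference of 1 is a 2-fold change. KIT, the receptor that defines GIST, lay above at least 98.8% of clusters on every array, ANO1, another GIST marker, above at least 98.4%, and CD34 above at least 98.9%. The GIST markers ETV1 and PRKCQ lay above at least 92.4% and 65.0%. Of the immune markers PTPRC lay above 4.51% of clusters at most, CD3E above 15.4% and CD14 above 49.8%, and of the epithelial markers EPCAM lay above 17.0% at most and CDH1 above 21.6%, while KRT8 lay above at least 91.1% and KRT18 above at least 74.9%. Endothelial markers reached at most 35.3% (CDH5), and the smooth muscle markers 38.7% (MYH11), 40.5% (CNN1), 54.0% (DES) and 72.9% (ACTG2). Of the 14 silenced genes 5 had a cluster of their own (ZNF43, IGFBP2, RASSF8, ZNF254 and ZNF528), and each was below both siCON arrays on its own knockdown array, by −1.42 (ZNF254) to −0.18 (ZNF528), and was the lowest of the 16 arrays in 4 of the 5, ZNF43 being the exception. ZNF528 was dim, at 4.54 on its own array and 4.65 and 4.80 on the siCON arrays, where expression above background is not shown. The SD over clusters, a measure of how stretched the values of an array are, was 2.27 and 2.26 on the siCON arrays and between 2.16 (IGF2R) and 2.27 (ZNF429) on the knockdown arrays. The number of arrays limits the precision of all values, and each knockdown is 1 array.

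CAS proteins have no known catalytic activity. They carry an SH3 domain that binds focal adhesion kinase and its relative PYK2, and a substrate domain whose tyrosines are phosphorylated by SRC family kinases once integrins have engaged the matrix. The phosphorylated tyrosines recruit the adaptors CRK and CRKL, which pass the signal to regulators of RAC and RAP and so to cell spreading and migration. NEDD9 is also known as a partner of the mitotic kinase Aurora A, and its transcription is known to respond to TGF-beta and to hypoxia.

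NEDD9 has 3 annotated starts in RefSeq. Promoters, each taken as 250 bases before to 50 bases after a start, were examined for 7 of the 10 genes. Those of PTK2, PTK2B and SRC were not examined. Promoter windows are shown for NEDD9, the gene with the largest difference among those listed. They are also shown for BCAR1 and VCL, whose levels moved together over the knockdowns as described further on. Capitals mark matches on either strand to CAGAC, the core of the SMAD element, ACGTG, the core of the hypoxia element, CCAAT, and GGGCGG, the GC box. Positions are those of GRCh38.p14, and for BCAR1, which has 5 starts, the window with the highest GC content is shown.
NEDD9 downstream start, chr6:11232619-11232918, minus strand: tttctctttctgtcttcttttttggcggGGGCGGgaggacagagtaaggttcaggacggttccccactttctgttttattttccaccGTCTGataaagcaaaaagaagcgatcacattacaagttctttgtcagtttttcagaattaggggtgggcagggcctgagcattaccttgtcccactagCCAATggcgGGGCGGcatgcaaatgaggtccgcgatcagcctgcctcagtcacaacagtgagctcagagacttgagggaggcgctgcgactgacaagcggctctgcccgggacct
NEDD9 upstream start, chr6:11382299-11382598, minus strand: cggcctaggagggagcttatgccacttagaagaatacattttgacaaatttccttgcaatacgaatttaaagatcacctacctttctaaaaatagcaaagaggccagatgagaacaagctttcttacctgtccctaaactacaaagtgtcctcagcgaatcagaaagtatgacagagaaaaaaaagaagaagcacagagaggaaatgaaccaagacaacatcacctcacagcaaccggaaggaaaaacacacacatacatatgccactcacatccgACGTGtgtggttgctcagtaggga
BCAR1, chr16:75265958-75266257, minus strand: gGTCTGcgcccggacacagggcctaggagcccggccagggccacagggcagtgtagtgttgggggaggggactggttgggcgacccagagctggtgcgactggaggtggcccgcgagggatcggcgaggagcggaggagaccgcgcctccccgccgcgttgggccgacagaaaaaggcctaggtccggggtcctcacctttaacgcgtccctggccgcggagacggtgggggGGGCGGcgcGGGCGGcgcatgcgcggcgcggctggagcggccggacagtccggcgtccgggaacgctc
VCL, chr10:73997866-73998165, plus strand: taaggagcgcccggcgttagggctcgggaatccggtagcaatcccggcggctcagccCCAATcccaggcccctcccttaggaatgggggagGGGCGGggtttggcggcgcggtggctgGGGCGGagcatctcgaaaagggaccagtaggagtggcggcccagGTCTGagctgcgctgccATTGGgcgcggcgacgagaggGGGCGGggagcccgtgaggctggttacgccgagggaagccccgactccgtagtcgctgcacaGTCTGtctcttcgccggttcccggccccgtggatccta
The downstream NEDD9 window held 1 CAGAC, 1 CCAAT and 2 GGGCGG matches and no ACGTG. The upstream window held 1 ACGTG and none of the other motifs, and the remaining NEDD9 start lies close by and shares most of it. The VCL window held 2 CAGAC, 2 CCAAT and 3 GGGCGG matches, and the BCAR1 window 1 CAGAC and 2 GGGCGG matches. Of all 35116 promoter windows in the table, 45.3% held CAGAC, 21.4% ACGTG, 34.6% CCAAT and 44.95% GGGCGG, so each of these matches is common. The GC content was 52.7% in the downstream and 42% in the upstream NEDD9 window, against 74.3% for BCAR1, 69.3% for VCL and a median of 58.7% over all windows. The BCAR1 window was picked for its high GC content, and those of its other starts had 57.7% to 67%. These other BCAR1 windows held 0 to 3 CAGAC matches and 0 or 1 ACGTG. A match describes these letters only, and the array values do not tell from which start a transcript came.

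NEDD9 had the largest difference of the listed genes and was lower than siCON on every knockdown array. It was 9.43 and 9.45 on the siCON arrays and between 7.73 and 9.02 on the knockdown arrays, with a median of 8.60 and a mean of 8.52 ± 0.41 (SD, n = 14). The groups did not overlap, and the siCON arrays differed by 0.02 from each other. This is the contrast for which the study named NEDD9, so the difference is given as a description and without a test. The mean log2 difference was −0.91, or 53.1% of the siCON level, and 0.495% of all clusters had a lower mean difference. Such a separation was not rare, since 4.52% of all clusters were under siCON on every knockdown array and 4.81% were over it.

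**Figure D1:**
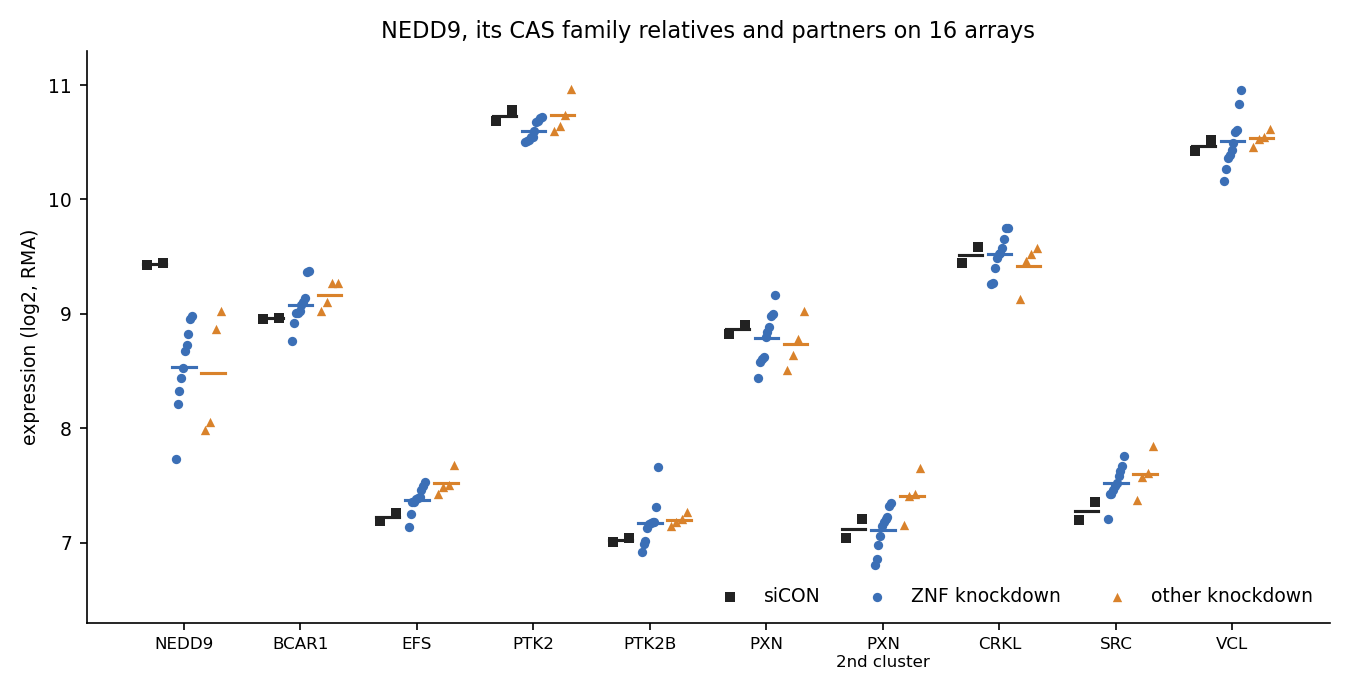
Expression (log2, RMA) of the 10 clusters on the 16 arrays, with siCON as black squares, ZNF knockdowns as blue circles and other knockdowns as orange triangles; horizontal bars are group means. The 14 knockdown values of NEDD9 run from 7.73 to 9.02 and lie below both siCON arrays. No other cluster has all its knockdown values on 1 side of siCON, but most lie above both siCON arrays for SRC (13 of 14) and for BCAR1 and EFS (12 of 14 each).

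The size of the NEDD9 difference varied among the silenced genes. It was −1.70 with ZNF708 silenced (30.8% of the siCON level), −1.45 with RASSF8, −1.38 with IGFBP2, −1.23 with ZNF100 and −1.11 with ZNF43. It was −0.9997 with ZNF254, −0.91 with ZNF528, −0.76 with ZNF665, −0.71 with ZNF91 and −0.62 with ZNF431. The smallest were −0.57 with GTF2I, −0.48 with ZNF85, −0.45 with ZNF429 and −0.41 with IGF2R (75.1%). The lowest and the highest values thus include both zinc finger and other silenced genes, and 5 of the 14 differences were −1 or lower. On the ZNF708 array 0.0954% of all clusters had a lower difference than NEDD9, and on the IGF2R array 19.1% did. The SD of NEDD9 over the knockdown arrays was larger than that of 91.4% of all clusters, whereas for the partners this share was between 8.48% (PTK2) and 52.1% (PXN, brighter cluster), and 56.8% for the second PXN cluster.

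The other CAS family members did not share the lower level of NEDD9. BCAR1, the CAS protein with the broadest expression, was 8.96 on both siCON arrays, and the knockdown arrays averaged 9.10 ± 0.17 (SD, n = 14), from 8.76 to 9.38 with a median of 9.09. It lay above both siCON arrays in 12 knockdowns and below both in 2, ZNF429 and ZNF528. EFS, the smallest CAS protein, was 7.19 and 7.26 on the siCON arrays and 7.42 ± 0.13 on the knockdown arrays, from 7.13 to 7.68 with a median of 7.41, and lay above both siCON arrays in 12. The log2 difference was 0.14 for BCAR1 (standard error 0.13, adjusted p = 0.540 from limma over all clusters) and 0.19 for EFS (standard error 0.11, adjusted p = 0.378), so neither passed the threshold of 0.05. CASS4, the last member of the family and not among the 10 genes, was 4.98 and 4.995 on the siCON arrays and 5.25 ± 0.15 on the knockdown arrays (log2 difference 0.26, adjusted p = 0.332), a level at which expression above background is not shown. On each of the 14 arrays the difference of NEDD9 was lower than that of each of the 8 measured partners. NEDD9 was chosen by its difference from siCON in these data, so this order is partly given by that choice and is a description only. The difference of NEDD9 minus that of BCAR1 ran from −0.41 with ZNF429 silenced to −1.76 with RASSF8 silenced.

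The kinases that phosphorylate or bind CAS proteins differed little in the mean. PTK2, which encodes focal adhesion kinase, was 10.68 and 10.79 on the siCON arrays and 10.64 ± 0.12 on the knockdown arrays, from 10.50 to 10.96 with a median of 10.62. Its log2 difference was −0.09 (standard error 0.11, adjusted p = 0.619), and it was below both siCON arrays in 9 knockdowns and above both in 1, that of IGFBP2. The IGFBP2 array stood at 10.96, which is 0.35 above the mean of the other 13 knockdowns with their SD of 0.09. PTK2B, which encodes PYK2, was 7.04 and 7.004 on the siCON arrays and 7.18 ± 0.17 on the knockdown arrays, from 6.92 to 7.66 with a median of 7.18. Its log2 difference was 0.16 (standard error 0.13, adjusted p = 0.502). The highest value belonged to the ZNF431 array, 0.51 above the mean of the other 13 with their SD of 0.11, and it is the largest single difference of any partner (0.63). With 1 array for each silenced gene neither single value can be tested. SRC, the kinase that phosphorylates the substrate domain, was 7.20 and 7.36 on the siCON arrays and 7.54 ± 0.16 on the knockdown arrays, from 7.21 to 7.85 with a median of 7.55. Its value exceeded both controls in 13 of 14 knockdowns, all but that of ZNF429, and it had the largest mean difference of the partners (0.26, standard error 0.13), which did not pass the threshold (adjusted p = 0.344).

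The adaptors and structural proteins stayed near siCON. CRKL, which binds phosphorylated CAS proteins through its SH2 domain, was 9.59 and 9.45 on the siCON arrays and 9.49 ± 0.18 on the knockdown arrays, from 9.13 to 9.75 with a median of 9.52, and 7 of its 14 values lay between the siCON arrays. Its log2 difference was −0.02 (standard error 0.14, adjusted p = 0.930), and its lowest value came from the IGFBP2 array, where PTK2 was highest. VCL, which encodes vinculin, the link between talin and actin, was 10.52 and 10.42 on the siCON arrays and 10.52 ± 0.21 on the knockdown arrays, from 10.16 to 10.96 with a median of 10.51 (log2 difference 0.05, standard error 0.15, adjusted p = 0.862). PXN, which encodes the adaptor paxillin, had a brighter cluster at 8.83 and 8.90 on the siCON arrays and 8.78 ± 0.22 on the knockdown arrays, from 8.44 to 9.17 with a median of 8.79 (log2 difference −0.09, standard error 0.16, adjusted p = 0.757). Its second cluster was 7.04 and 7.20 on the siCON arrays and 7.20 ± 0.23 on the knockdown arrays, from 6.80 to 7.65 with a median of 7.19 (log2 difference 0.07, standard error 0.16, adjusted p = 0.805). The clusters of PXN thus differed in sign and neither passed the threshold. Of the 8 partners 0 were called by limma (0 also at an unadjusted p under 0.05, and 0 after adjustment by the methods' t-test), beside 0.541% of all clusters called and 14.7% at an unadjusted p under 0.05. By direction 6.93% of all clusters were lower and 7.77% higher at that unadjusted threshold. Of the 112 partner values, 7 differed from the siCON mean by at least 0.41, the smallest difference of NEDD9, as did 1 of the 14 values of the second PXN cluster (0.53 with IGF2R silenced).

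**Figure D2:**
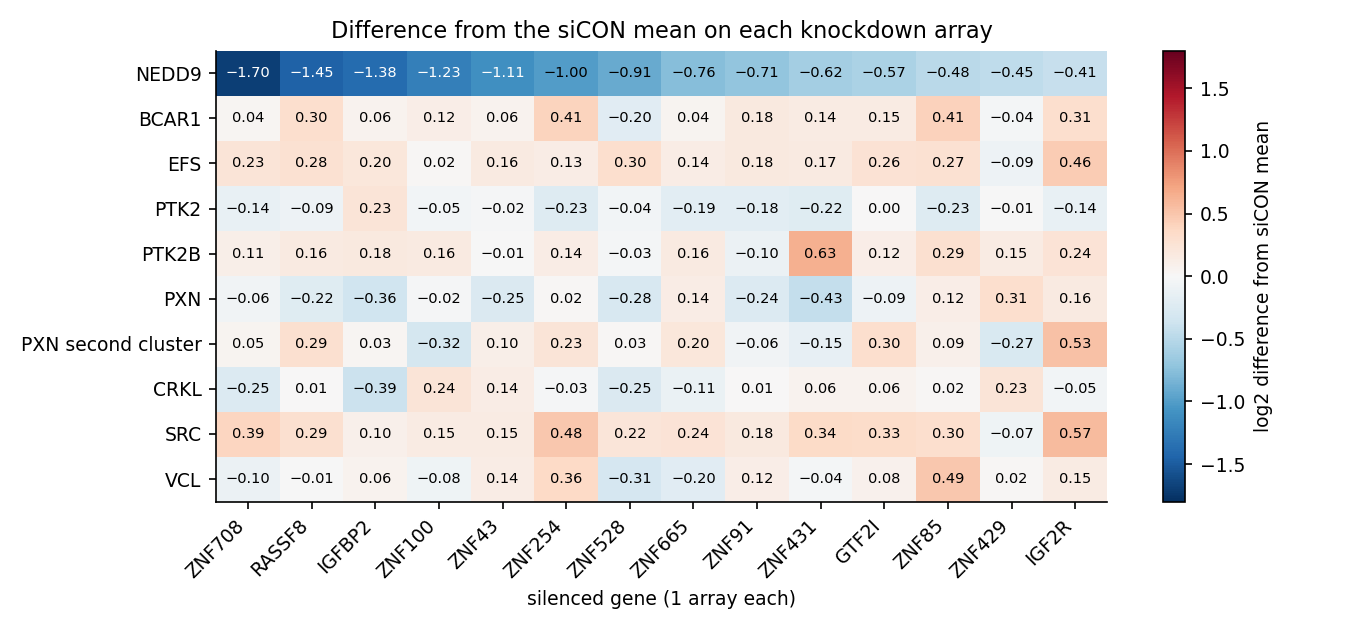
Log2 difference of each cluster (rows) from the mean of the siCON arrays on each of the 14 knockdown arrays (columns, ordered by NEDD9), with blue for lower and red for higher values. The NEDD9 row runs from −1.70 (ZNF708) to −0.41 (IGF2R), and the strongest partner value is 0.63 for PTK2B on the ZNF431 array.

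Whether silencing a zinc finger gene and silencing another gene had different effects was compared in a fit with siCON, 10 ZNF and 4 other knockdowns as groups, a contrast that does not use siCON. NEDD9 was 8.54 ± 0.38 (SD, n = 10) on the ZNF arrays and 8.48 ± 0.54 (SD, n = 4) on the others, the other-minus-ZNF value being −0.06, within a standard error of 0.22 (limma, adjusted p = 0.907). The two-sided exact permutation test over 1001 choices of arrays gave p = 0.824. The ZNF values ran from 7.73 to 8.98 and the others from 7.99 to 9.02, so the groups overlapped over nearly their whole ranges. The largest difference among the measured clusters was that of the second PXN cluster, 7.11 ± 0.19 on the ZNF arrays and 7.41 ± 0.20 on the others (0.30, standard error 0.11, adjusted p = 0.197 from limma, exact permutation p = 0.0190). EFS followed with 7.37 ± 0.12 and 7.52 ± 0.11 (0.15, adjusted p = 0.296, exact permutation p = 0.0450). Of the 9 genes limma called 0 (0 at an unadjusted p under 0.05 for their main clusters), beside 0% of all clusters called and 19.8% at an unadjusted p under 0.05. The groups did not overlap for 0.354% of all clusters. Without the IGFBP2 array the difference of the second PXN cluster was 0.38 and passed (adjusted p = 0.0359), in a fit that then called 758 clusters lower and 2618 higher, while the brighter PXN cluster differed by 0.02.

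SRC and EFS were higher on arrays whose values were less stretched. Over the 14 knockdown arrays SRC had a Pearson r of −0.766 with the SD over clusters (permutation p = 0.00163, adjusted p = 0.0163 over the 10 clusters) and a Spearman's rho of −0.666 (p = 0.0108, adjusted p = 0.0645). EFS had an r of −0.698 (permutation p = 0.00609, adjusted p = 0.0304) and a rho of −0.464 (p = 0.0974, adjusted p = 0.195), and BCAR1 an r of −0.618 (permutation p = 0.0183, adjusted p = 0.05005, not past the threshold) and a rho of −0.657 (p = 0.0129, adjusted p = 0.0645). Without the ZNF429 and IGF2R arrays, which lie farthest from the median SD, r was −0.454 for SRC (permutation p = 0.140), −0.219 for EFS (p = 0.497) and −0.531 for BCAR1 (p = 0.0752), so the relation of EFS rests on those arrays, and those of SRC and BCAR1 were weaker and not past an unadjusted p of 0.05 without them. The second PXN cluster had an r of −0.610 (permutation p = 0.0200, adjusted p = 0.05005) and a rho of −0.543 (p = 0.0483, adjusted p = 0.121), and its r was −0.204 without these arrays (p = 0.527). PTK2B also had a negative r, of −0.528 (permutation p = 0.0520, adjusted p = 0.104), and a rho of −0.547 (p = 0.0454, adjusted p = 0.121). Unlike those of SRC, EFS, BCAR1 and the second PXN cluster, its r was stronger without these arrays (−0.673, permutation p = 0.00860). Among the ZNF arrays alone r was −0.635 for SRC (permutation p = 0.0483), −0.657 for PTK2B (p = 0.0438), −0.499 for EFS (p = 0.142), −0.530 for BCAR1 (p = 0.112) and −0.252 for the second PXN cluster (p = 0.487). An r under −0.5 was found for 29.4% of all clusters, for 46.4% of those below the median level, where SRC, EFS and PTK2B lie on all arrays, and for 12.4% of those at or above it, where BCAR1 lies. With all arrays set to the same SD the difference from siCON was 0.21 for SRC, 0.13 for EFS and 0.09 for PTK2B. NEDD9 had an r of −0.236 (permutation p = 0.415, adjusted p = 0.519) and a rho of −0.231 (p = 0.426, adjusted p = 0.532), and with equal SDs its difference was −0.93.

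**Figure D3:**
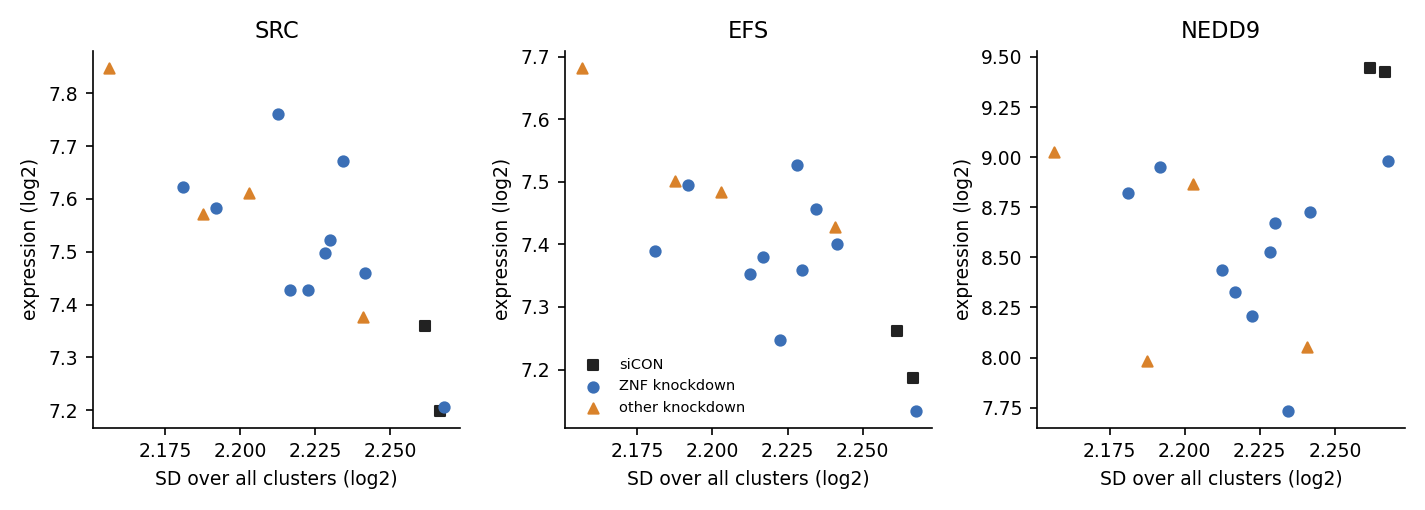
Expression (log2) of SRC, EFS and NEDD9 against the SD over all clusters of the same array (log2), with siCON as black squares, ZNF knockdowns as blue circles and other knockdowns as orange triangles. SRC and EFS are highest on the IGF2R array, which has the smallest SD (2.16), while NEDD9 lies below siCON over the whole range.

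Within the knockdown arrays BCAR1 and VCL moved together. Both were highest with ZNF85 silenced (9.38 and 10.96), next highest with ZNF254 silenced (9.37 and 10.83) and lowest with ZNF528 silenced (8.76 and 10.16). Their Pearson r over the 14 arrays was 0.806 (permutation p = 0.000660, adjusted p = 0.0238 over 36 pairs of the 9 genes) and Spearman's rho 0.767 (p = 0.00170, adjusted p = 0.0612). With ZNF85 and ZNF528, the extreme arrays for BCAR1, left out, r was 0.618 (permutation p = 0.0331, adjusted p = 0.298), so the call rests on those arrays. Among the 10 ZNF arrays r was 0.883 (permutation p = 0.00122, adjusted p = 0.0439), and with arrays of equal SD it was 0.823 (p = 0.000460, adjusted p = 0.0166). No other pair passed after adjustment, and 4 of the 36 had an unadjusted p under 0.05. The 8 pairs that include NEDD9 had an r between −0.314 (PTK2) and 0.411 (PXN), the smallest permutation p being 0.145 (adjusted p = 0.664), so no relation of NEDD9 to a partner was detectable over these arrays. EFS and SRC had an r of 0.703 (permutation p = 0.00590, adjusted p = 0.106), which was 0.187 without the ZNF429 and IGF2R arrays (p = 0.560), and a rho of 0.429 (p = 0.127, adjusted p = 0.652).

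**Figure D4:**
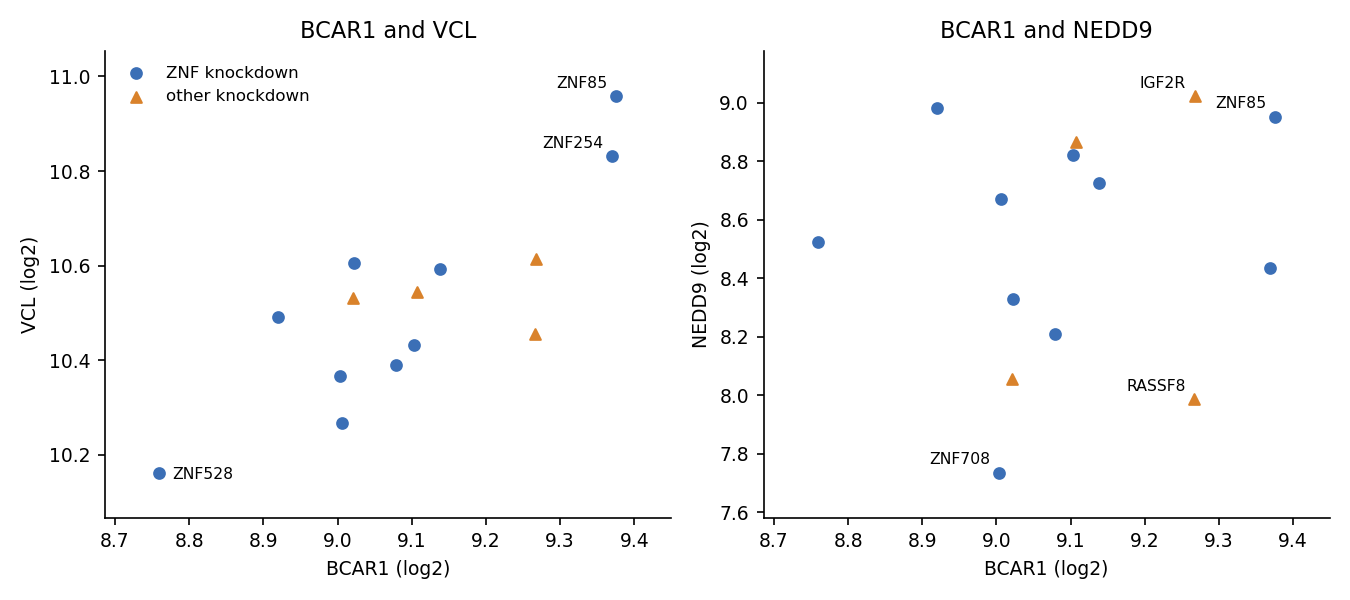
Expression (log2) of VCL (left) and NEDD9 (right) against that of BCAR1 over the 14 knockdown arrays, with ZNF knockdowns as blue circles and other knockdowns as orange triangles. VCL and BCAR1 share their highest (ZNF85, ZNF254) and lowest (ZNF528) arrays, and NEDD9 shows no such order with BCAR1.

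The genes whose levels followed NEDD9 most closely over the knockdown arrays lay outside the CAS complex. Among 7457 other genes with a cluster above the median level, the highest r with NEDD9 over the 14 arrays belonged to CD44, the hyaluronan receptor (0.810), CLU, which encodes the secreted chaperone clusterin (0.799), the RNA-binding protein gene RBMS2 (0.790), CDH11, a mesenchymal cadherin (0.781), and SOD3, the extracellular superoxide dismutase (0.772). Among the ZNF arrays alone these values were 0.709, 0.945, 0.695, 0.819 and 0.748. The lowest belonged to DPP10 (−0.783), AP3M2, a subunit of a vesicle adaptor (−0.772), RTTN, a centriole protein gene (−0.772), the histone deacetylase gene HDAC1 (−0.734) and the cochaperone gene DNAJC7 (−0.731). These genes were taken from the ends of a long ranking, so r is a description and has no test. The difference from siCON was negative for all of the highest-ranked genes but CDH11, and its size varied. RBMS2 was 11.07 and 11.16 on the siCON arrays and between 9.80 and 10.92 on the knockdown arrays, below siCON throughout as NEDD9 was. CDH11 was 10.55 and 10.37 on the siCON arrays and between 10.86 and 11.98 on the knockdown arrays, above siCON throughout, and RTTN, with the opposite order to NEDD9, was 0.99 lower than siCON in the mean. CD44 was 9.23 and 9.04 on the siCON arrays and between 8.25 and 9.63 on the knockdown arrays, so the groups overlapped.

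In the wider adhesion machinery no gene passed the threshold by limma in either direction, in any of the 5 lists of genes around the members (beside 0.282% of all clusters called lower and 0.259% higher). The median log2 difference over all clusters was 0.07 (0.01 with arrays of equal SD), and 59.4% of all clusters were above siCON in the mean. Of 15 measured kinases and phosphatases that act next to CAS proteins, 5 were above siCON in the mean and the list median was −0.19, with 2 lower and 0 higher at an unadjusted p under 0.05. PTPN12, a phosphatase that removes phosphate from CAS proteins, was 10.37 and 10.23 on the siCON arrays and 9.97 ± 0.18 on the knockdown arrays (log2 difference −0.34, adjusted p = 0.283), and lay below both siCON arrays in 13 of 14. RB1CC1, which encodes an inhibitor of focal adhesion kinase, had siCON values of 9.04 and 9.05 and was below both in all 14 knockdowns (−0.35, adjusted p = 0.306). PTPN11, the phosphatase SHP2, differed by −0.26 (adjusted p = 0.450).

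Of 29 measured adaptors and GTPase regulators 12 were above siCON in the mean, with a list median of −0.08 (14 and −0.0076 with quantile normalization), and 2 were lower and 3 higher at the unadjusted threshold. ELMO1, which with DOCK proteins activates RAC downstream of CRK, was 6.52 and 6.50 on the siCON arrays and 7.14 ± 0.22 on the knockdown arrays, from 6.74 to 7.61. It lay above siCON in all 14 (log2 difference 0.63, standard error 0.16, adjusted p = 0.0907), the smallest adjusted p of any gene in these lists. RAC1, the GTPase that this route activates, was 7.10 and 7.22 on the siCON arrays and between 7.25 and 7.87 on the knockdown arrays (0.47, adjusted p = 0.165). ASAP2, an ARF GTPase-activating protein that binds PYK2, lay below both siCON arrays in all 14 (−0.44, adjusted p = 0.279).

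Of 31 measured structural and LIM proteins of the focal adhesion 22 were above siCON in the mean, with a list median of 0.05 (18 and 0.0036 with median-centred arrays), and 3 were lower and 4 higher at the unadjusted threshold. CAV1, which encodes caveolin, had the largest difference of any gene in the lists and also the widest spread of those named, at 9.04 and 9.18 on the siCON arrays and 8.13 ± 0.55 on the knockdown arrays (−0.98, standard error 0.36, adjusted p = 0.251). It was lowest with IGFBP2 silenced (7.42), and with ZNF665 silenced it was 9.32 and above siCON. TGFB1I1, the paxillin relative HIC5, was 10.49 and 10.26 on the siCON arrays and between 10.50 and 11.50 on the knockdown arrays (0.60, adjusted p = 0.253). TNS2, a tensin, differed by 0.56 (adjusted p = 0.179) and TES, a LIM protein that binds zyxin, by −0.45 (adjusted p = 0.285), and neither overlapped with siCON.

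Of 21 measured integrin subunits, the receptors upstream of the members, 17 were above siCON in the mean, and the list median was 0.17 (16 and 0.10 with arrays of equal SD), with 0 lower and 5 higher at the unadjusted threshold, which 6.93% of all clusters passed as lower and 7.77% as higher. ITGB1, the beta subunit of most matrix receptors, was 10.13 and 10.02 on the siCON arrays and 10.51 ± 0.16 on the knockdown arrays, from 10.20 to 10.77 (0.43, standard error 0.12, adjusted p = 0.150). ITGA11, a collagen receptor subunit, differed by 0.82 (standard error 0.30, adjusted p = 0.245) and ITGA3, a laminin receptor subunit, by 0.56 (adjusted p = 0.256), each above siCON in all 14. ITGB3 was dim, at 5.49 and 5.53 on the siCON arrays, and differed by 0.22 (adjusted p = 0.323) and by 0.12 with arrays of equal SD. Of 17 measured genes listed as partners of NEDD9 in mitosis, the cilium and protein turnover, 3 were above siCON in the mean and the list median was −0.21, with 2 lower and 1 higher at the unadjusted threshold. The last was CHAT, the choline acetyltransferase, which is no known partner and entered the list by its symbol, also an older name of the CAS-binding protein SH2D3C. Without CHAT, a choice made after seeing the data, 2 of 16 were above siCON, the median was −0.27, and 2 were lower and 0 higher at that threshold. AURKA, the Aurora A kinase that NEDD9 binds, was 9.08 and 8.98 on the siCON arrays and 8.52 ± 0.35 on the knockdown arrays (−0.51, adjusted p = 0.333). CDC20, an activator of the anaphase-promoting complex, was 11.90 and 11.89 on the siCON arrays and 11.21 ± 0.39 on the knockdown arrays, below siCON in all 14 (−0.69, adjusted p = 0.258), and both genes were lowest with IGFBP2 silenced. CDC27, a subunit of the same complex, differed by −0.34 (adjusted p = 0.346). CHAT itself differed by 0.25 (adjusted p = 0.331) and had an r of −0.761 with the SD over clusters. Over the 14 knockdown arrays the r of NEDD9 with AURKA was −0.0120, and with CDC20 it was 0.185.

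**Figure D5:**
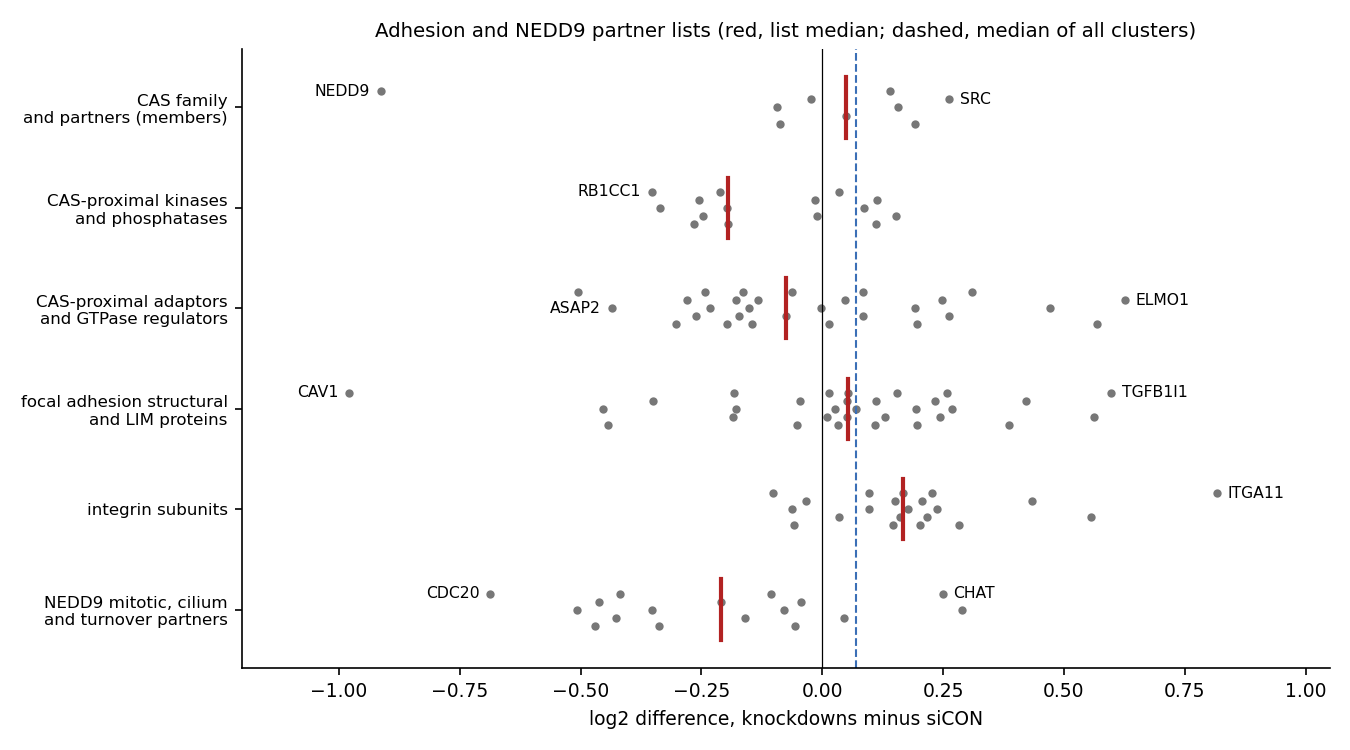
Log2 difference (knockdowns minus siCON) of every measured gene in the list of members and in the 5 lists around them, 1 point a gene, with the list median in red and the median of all clusters (0.07) as a dashed line. NEDD9 (−0.91) and CAV1 (−0.98) lie farthest to the left, and the integrin list has its median at 0.17.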

How the data were processed

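The authors normalized the scans by RMA (oligo package), summarized core probes to genes, and deposited log2 expression estimates for 16 arrays. The submitters' processing notes list hg19 as well, without versions. These log2 values were used unchanged. RMA yields no detection calls, and its quantile step can hide shifts shared by most probes. GEO's platform annotation gives 14432 clusters 1 symbol, 2408 several and 5171 none. A gene with several clusters was represented by the brightest.

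All 14 knockdowns were compared with siCON, so that their spread is the error, and other with ZNF knockdowns in a separate fit. Both used lmFit and eBayes of limma (3.58.1, under R 4.3.3) on all 22011 clusters with Benjamini-Hochberg adjustment and a threshold of 0.05. Tested on simulated data for these 22011 clusters, the first recovered 82% of differences of −1 and 78% of those of 1. The simulated noise was normal and independent between clusters, and each difference was the same on all knockdown arrays. No difference smaller in size than 1 was simulated, so these shares do not apply to the partners, whose mean differences were all smaller. Correlations used 100000 permutations. Software was Python (3.11.15) with matplotlib (3.10.9), scipy (1.17.1), pandas (2.3.3) and numpy (2.4.6). Members and lists were chosen with earlier results of these data known. Named genes are the members, the 4 smallest p-values per list, and the 5 genes with the highest and the 5 with the lowest r with NEDD9 among genes with a mean above the cluster median. 1 gene that this rule names is not reported here. Alternatives were 3 other scalings, no dim clusters, each array left out, another variance model, a mean-expression trend removed, means over a gene's clusters, the methods' t-test, and either knockdown group alone. Promoters are from RefSeq. A planned comparison of CAS protein sequences was not run for want of sequences, and 36 gene pairs were correlated rather than 45 since no cluster names CRK.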

Additional observations from a re-analysis of the deposited data

Results flagged for a closer look

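PTK2B stood at 7.66 on the ZNF431 array, apart from the other 9 ZNF knockdowns, whose values ran from 6.92 to 7.31. Its gap to the nearest of them was 0.470 of the whole range of the group. This was the only sample flagged among 20 groups of values (10 clusters in the ZNF and the other knockdowns), and chance gives about 1 in 20. Gaps of a larger share in the smaller group of 4 other knockdowns were not flagged. CRKL there stood at 9.13 on the IGFBP2 array and from 9.47 to 9.57 on the rest.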

How the results depend on the processing

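NEDD9 was lower in the knockdowns under every alternative tried, by −0.95 to −0.85 with each array left out. The study named NEDD9 for this contrast, and every knockdown lay below both siCON arrays, so leaving out an array could not change the sign. The counts of genes called, 0 of 8 partners against siCON and 0 of 9 genes between knockdown groups, each by its brightest cluster, were 0 under every alternative that was tested, while the second PXN cluster passed between knockdown groups without IGFBP2. Between knockdown groups the main fit called 0 of all 22011 clusters, so the 0 there is no result about the members. It called clusters only without IGFBP2 (758 lower, 2618 higher) or RASSF8 (2 lower, 0 higher). The count over the pathway lists was 0 under the 4 alternatives tried and without CHAT. Of 259 alternative values against siCON 11 changed sign, and of 229 between knockdown groups 9 did. The cause was not tested. Against siCON, CRKL became 0.0531 with quantile normalization, 0.0393 minus the trend on mean expression and 0.0053 with ZNF knockdowns alone (−0.0921 to 0.0456 with arrays left out). The second PXN cluster became −0.0112, −0.0141 and −0.0111 in the same settings (−0.0066 to 0.155 with arrays left out), PTK2 0.00078 with other knockdowns alone, and VCL −0.00046 with median-centred arrays. With arrays left out PTK2 ran from −0.146 to −0.0416 and VCL from 0.0012 to 0.0960, the ends being those without 1 siCON array. Between knockdown groups PTK2B became −0.0486 with quantile normalization, −0.0483 minus the trend and −0.0029 with equal SDs, and PXN 0.0072 with quantile normalization and 0.12 as the mean of its clusters (−0.15 to 0.0237 with arrays left out). With arrays left out NEDD9 ran from −0.24 to 0.11, positive without IGFBP2 (0.09) or RASSF8 (0.11), VCL from −0.0115 to 0.0770, and the second PXN cluster from 0.22 to 0.38. Of 36 gene pairs 1 was called, and 0 without the 2 farthest arrays, where BCAR1 and VCL had an r of 0.618. Over all clusters 62 were called lower and 57 higher against siCON, 80 and 34 with median-centred arrays, 31 and 33 by the methods' t-test, 6 and 1 with other knockdowns alone, 8 and 5 without siCON replicate 1, and 2 and 0 without siCON replicate 2. A lone siCON array was assumed to vary like the others. No paired analysis was possible because the labels give no replicate numbers shared between groups.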
